A study of Homo sapiens with 6 samples.

Results

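The genes described here are 9 genes of the synthesis, breakdown and sensing of prostaglandin E2, out of 18701 genes with a value on the arrays: PTGS2, PTGS1, PTGES, PTGES2, PTGES3, HPGD, PTGER2, PTGER4 and PLA2G4A. They were chosen by function around PTGS2, whose fall during recovery was already known from these arrays, so the levels and differences of PTGS2 are given as a description with no test. A gene's value is the median log2 signal of the probe sets that carry only its symbol, so 1 unit is a 2-fold difference in signal. All 9 had between 5 and 19 probe sets, and 8 had a mean above the filter on dim genes, which leaves out the lowest 25% of genes (log2 signal of 3.62 or less) and keeps 14025. PTGER2, at a mean of 3.20, did not.

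The cells were HT29-tsp53, a derivative of HT-29, which is an established line from a human colorectal adenocarcinoma. All groups carried its transgene, a temperature-sensitive mouse p53 (V135A). The p53 off group was kept at the restrictive temperature, which disables the mouse p53. The p53 on group was moved to 32 °C for 16 h, and the p53 on then off group had the same 16 h and then 6 h of recovery. The restrictive temperature is 38 °C in some labels and 37 °C in others, and a source label of the recovery samples names 32 °C for the last 6 h. The groups follow the sample titles. Each group had 2 arrays, numbered as experiments 1 and 2. The labels name no promoter for the transgene and do not say whether the line is a single clone, and nothing in them says that the arrays of a group came from separate cultures, so p-values measure the spread between these arrays, which may be technical. No cells without the transgene were analysed here, so active p53 and the shift to 32 °C cannot be told apart. In a culture, fewer cells that express a gene and less RNA per cell cannot be told apart either.

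Prostaglandin E2 is made in 3 steps. A phospholipase such as the one encoded by PLA2G4A frees arachidonic acid from membranes, a cyclooxygenase (PTGS1, made in many tissues, or PTGS2, the inducible form also called COX-2) turns it into prostaglandin H2, and a terminal synthase isomerises that to prostaglandin E2. The dehydrogenase encoded by HPGD inactivates the product, and the receptors encoded by PTGER2 and PTGER4 (EP2 and EP4) raise cyclic AMP in cells that sense it. In the colon, PTGS2 is low in normal epithelium and raised in many carcinomas, while HPGD is high in normal epithelium and often lost in tumours.

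PTGS2 and PTGES were the members that stood higher with p53 on in both experiments by more than 1 log2 unit, and PTGS1 was the paralogue of PTGS2 that did not. To set them side by side, the 250 bases before the annotated start of each are shown from RefSeq (GRCh38.p14), where all 9 members had an entry. Capitals mark matches on either strand to 4 motifs. The TATA box that places the start was searched as TATAAA. The core of the cyclic AMP response element was searched as TGACG. The site of C/EBP factors was searched as TTNNGNAA. The GC box bound by SP1 was searched as GGGCGG.
PTGS2 (chr1:186680424-186680673, minus strand): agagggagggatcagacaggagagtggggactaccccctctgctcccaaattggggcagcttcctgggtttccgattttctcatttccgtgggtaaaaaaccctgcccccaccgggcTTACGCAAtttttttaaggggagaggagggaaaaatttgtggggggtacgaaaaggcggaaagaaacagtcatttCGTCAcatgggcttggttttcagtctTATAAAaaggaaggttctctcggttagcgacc
PTGES (chr9:129753043-129753292, minus strand): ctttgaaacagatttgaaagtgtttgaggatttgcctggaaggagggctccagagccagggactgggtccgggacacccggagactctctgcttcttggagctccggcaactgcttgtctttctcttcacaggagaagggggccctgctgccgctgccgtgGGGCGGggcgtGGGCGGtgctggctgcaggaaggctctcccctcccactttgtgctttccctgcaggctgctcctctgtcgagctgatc
PTGS1 (chr9:122370283-122370532, plus strand): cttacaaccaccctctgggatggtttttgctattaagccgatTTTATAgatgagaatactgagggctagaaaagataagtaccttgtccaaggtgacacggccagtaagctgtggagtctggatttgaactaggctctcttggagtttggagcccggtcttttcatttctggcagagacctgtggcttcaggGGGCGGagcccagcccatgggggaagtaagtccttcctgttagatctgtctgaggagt

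The PTGS2 stretch held a TATA box 32 bases before the start, a core of the cyclic AMP response element at -58 that shares 2 bases with an E-box (CANNTG), and a C/EBP match at -133. Its 2 NF-kB matches overlap each other. The PTGES stretch held no TATA box, 2 GC boxes, an E-box at -143 and an NF-kB match at -209 that reads on both strands. PTGS1 held 1 GC box and, on the opposite strand at -208, a TATA match, and neither an E-box nor an NF-kB match. Of 15842 protein-coding promoters of the same length, 9.23% held the TATA box, 25.6% the cyclic AMP core, 27.6% the C/EBP match, 56.0% the GC box, 57.8% the E-box and 31.9% an NF-kB match. A p53 decamer (1 of the 2 copies that make up its full site), present in 5.10% of them, and TGANTCA (AP-1), present in 5.04%, were in none of these 3 windows. Such matches describe letters, and the arrays do not measure binding.

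The arrays followed their labels. Differences between groups were tested with limma, a linear model with a moderated spread, and a gene was called at a p under 0.05 after adjustment over the 14025 genes. A replicate block in that model removes what the arrays of an experiment share. Errors printed after ± are standard errors of the fit without this block, also where the call beside them was made with it. The p53 targets CDKN1A, MDM2 and GDF15 rose by 3.21, 3.52 and 3.04 log2 units in p53 on (limma, adjusted p between 0.00174 and 0.00444) and fell in recovery to within 0.33 of their controls in each experiment. All 9 epithelial markers were above the dim filter, from 4.35 for CDX2 to 12.46 for KRT18, with a median of 9.64. Of 8 fibroblast and 8 leukocyte markers, 5 of each were above it. Fibroblast markers ran from 2.03 for DCN to 5.57 for COL1A1, and leukocyte markers from 1.70 for PTPRC to 11.21 for LYZ, a lysozyme gene, with CD68, a macrophage marker, next at 6.15. DCN, LUM and FAP of fibroblasts and PTPRC, CD3E and MS4A1 of leukocytes were under the filter. None of the 10 tested markers of these other cell types was called in any comparison, with or without the experiment number in the limma fit (with it, 1 was under an unadjusted p of 0.05 in p53 on and 1 in recovery against p53 on, and without it 1 and 0). The widest difference of a leukocyte marker was 0.62 ± 0.23 for CD68 in p53 on, and that of a fibroblast marker was 0.38 ± 0.20 for COL1A2, a collagen gene, between recovery and control. LYZ differed by at most 0.17 ± 0.30. The keratin gene KRT19 differed by 1.29 ± 0.54 in p53 on and was called once the experiment number entered as a replicate block (adjusted p = 0.00322, or 0.317 without it). Its difference ran from 0.69 to 1.89 when 1 array was left out (the p53 on array of experiment 1 for the lowest, that of experiment 2 for the highest), and between recovery and control it was 1.09 ± 0.54 (adjusted p = 0.963, called with the block at 0.0413).

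PTGS2, the inducible cyclooxygenase, stood in experiments 1 and 2 at 5.79 and 6.14 with p53 off. It reached 7.61 and 8.53 with p53 on and ended at 5.18 and 5.00 after recovery. The p53 on arrays were the highest, the recovery arrays were the lowest, and no groups overlapped. How many of all genes separate in this way was not counted, for PTGS2 or for the genes below. The signal was 3.52-fold and 5.24-fold higher in p53 on than in p53 off within the experiments, a group difference of 2.10 ± 0.33 log2 units (standard error from limma, n = 2 arrays per group, as for all errors below). It was 5.38-fold and 11.5-fold lower after recovery than in p53 on, a group difference of -2.98 ± 0.33. On these arrays PTGS2 ended 0.61 and 1.14 log2 units below its control in the experiments, or a group difference of -0.87 ± 0.33. The gene was chosen with its fall in recovery known, which favours low recovery values. Whether it ends below control was not tested.

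**Figure D1:**
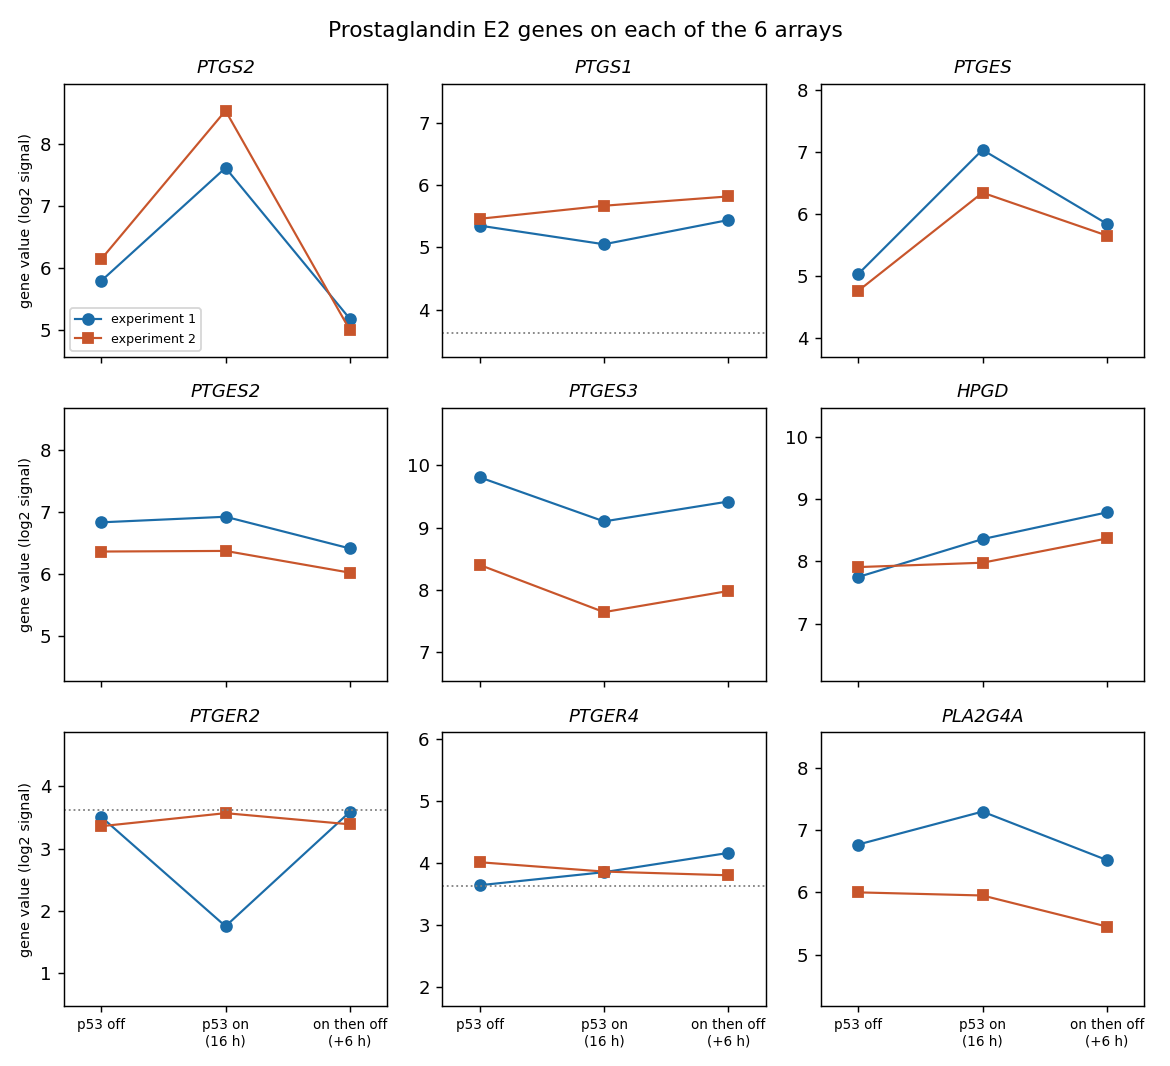
Gene values (log2 signal) of the 9 members on the 6 arrays, with a line for each experiment; every panel spans the same range of log2 units and the dotted line is the dim filter at 3.62. PTGS2 and PTGES peak in p53 on in both experiments, and PTGS2 ends below its control.

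The pattern was shared by most of the 15 PTGS2 probe sets. The gene value is their median and they read the same arrays, so they are not replicates and their agreement is partly built in. In both experiments 13 of them were higher in p53 on than in p53 off, 14 were lower after recovery than in p53 on, and 13 were lower after recovery than in p53 off. Their group differences ran from -0.91 to 2.51 for p53 on against p53 off and from -3.79 to -0.06 for recovery against p53 on. The 2 that were not higher in both experiments had mean control signals of 2.61 and 3.26, the lowest of the 15. With the mean of the probe sets in place of their median, the differences of PTGS2 were 1.61 and -2.58.

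PTGS1, the constitutive cyclooxygenase, was not called in any comparison. It stood at 5.35 and 5.46 in p53 off, 5.05 and 5.67 in p53 on, then 5.44 and 5.82 after recovery. The groups overlapped, and p53 on was lower than control in experiment 1 and higher in experiment 2. The differences were -0.05 ± 0.27 in p53 on (limma, adjusted p = 0.963), 0.27 ± 0.27 in recovery against p53 on (adjusted p = 0.802) and 0.23 ± 0.27 in recovery against control (adjusted p = 0.999). Of its 17 probe sets, 2 were higher and 5 lower in p53 on in both experiments.

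PTGES encodes the inducible microsomal synthase that takes over the product of PTGS2. It stood at 5.03 and 4.76 in p53 off, 7.03 and 6.34 in p53 on, then 5.84 and 5.65 after recovery. Its 3 groups did not overlap either, but here the recovery arrays lay between the others. PTGES rose 3.45-fold in p53 on, by 1.79 ± 0.28 log2 units (limma, adjusted p = 0.0420), with 3.99-fold and 2.99-fold in the experiments. It was the only one of the 7 tested members other than PTGS2 to be called, where 1.48% of all genes were called in this comparison. The call was lost when any single array was left out (adjusted p between 0.0518, without p53 on array 2, and 0.26, without p53 off array 2), with no filter on dim genes (0.0501) and when p53 on and p53 off were fitted alone (0.0852), while the difference stayed between 1.38 and 2.13 under all 13 alternatives.

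After recovery PTGES had lost part of its rise. It was lower than in p53 on by 1.18 and 0.68 in the experiments, a difference of -0.93 ± 0.28. That was not called without the replicate block (limma, adjusted p = 0.226) and was called with it (adjusted p = 0.0243). Against control it stood 0.81 and 0.89 higher, or 0.85 ± 0.28 (adjusted p = 0.876, or 0.105 with the block). On the log2 scale 40.7% and 56.7% of the rise of PTGES was left after 6 h, beside -33.6% and -47.6% for PTGS2, where a negative share is a level under control, and between -11.5% and 6.54% for CDKN1A, MDM2 and GDF15.

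PTGES had 6 probe sets. In both experiments 5 were higher in p53 on and the same number were lower after recovery than in p53 on, while all 6 were higher after recovery than in control. Their differences in p53 on were uneven, at 2.66, 2.78 and 1.82 for some and 0.64, 0.62 and -0.25 for the others. The gene value of PTGES is thus a median of probe sets that moved unequally. In recovery against p53 on their differences ran from -1.61 to 0.39.

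**Figure D2:**
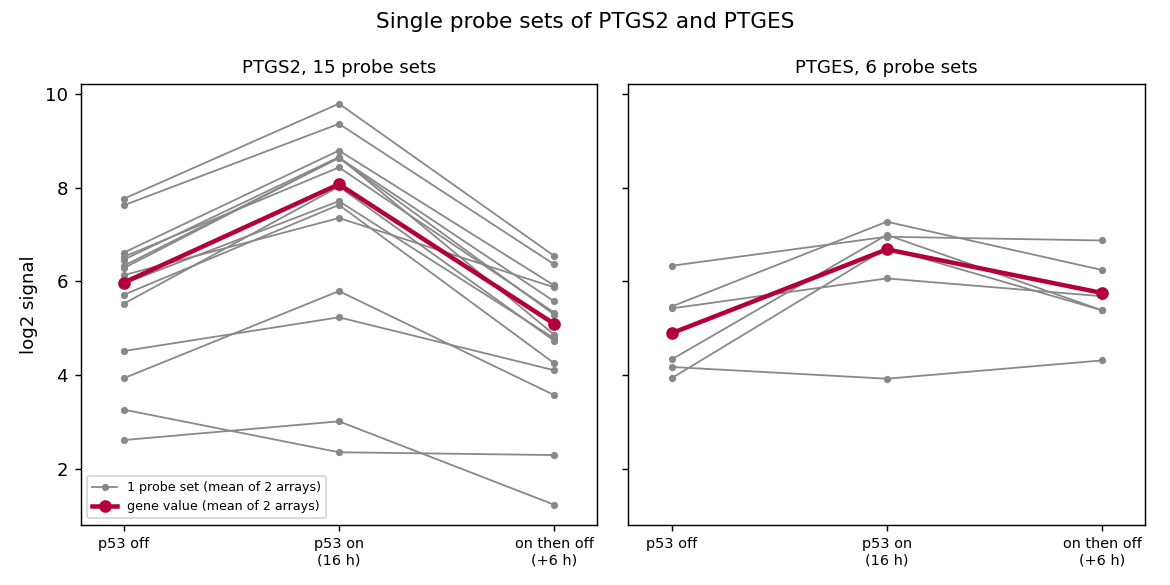
Mean log2 signal over 2 arrays of each probe set (grey) of PTGS2 and PTGES in the 3 groups, with the gene value in red. From p53 off to p53 on the grey lines of PTGS2 move by -0.91 to 2.51, with 13 of 15 higher in both experiments, and those of PTGES by -0.25 to 2.78, with 5 of 6 higher.

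The other terminal synthase genes were not called without the replicate block. PTGES2, a membrane-associated synthase, stood at 6.83 and 6.36 in p53 off, 6.92 and 6.37 in p53 on, then 6.41 and 6.02 after recovery. Within each experiment the recovery array was the lowest, but the groups overlapped because experiment 2 was lower throughout by 0.39 to 0.56. Its differences were 0.05 ± 0.29 in p53 on (limma, adjusted p = 0.966) and -0.43 ± 0.29 in recovery against p53 on (adjusted p = 0.653, or 0.177 with the block), and neither was called.

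PTGES3 encodes a cytosolic synthase that is also p23, a cochaperone of HSP90. It stood at 9.81 and 8.40 in p53 off, 9.10 and 7.64 in p53 on, then 9.42 and 7.98 after recovery. Experiment 2 was lower by 1.40, 1.46 and 1.45 in the 3 groups, more than any difference between groups, and the groups overlapped. Within the experiments the p53 on array was lower than control by 0.70 and 0.76. The difference of -0.73 was not called without the replicate block (SE 0.69, limma, adjusted p = 0.707) and was called with it (SE 0.17, adjusted p = 0.0261). Leaving out 1 array, which unbalances the experiments, gave between -1.46 when the p53 on array of experiment 1 was dropped and 0 when that of experiment 2 was. With the block, 2 of the 7 tested members other than PTGS2 were called in p53 on, PTGES and PTGES3, where 11.5% of all genes were. In recovery PTGES3 was 0.32 and 0.33 above p53 on, which was not called (0.33 ± 0.69, adjusted p = 0.935, or 0.295 with the block). Of its 9 probe sets, 7 were lower in p53 on in both experiments and none was higher in both.

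**Figure D3:**
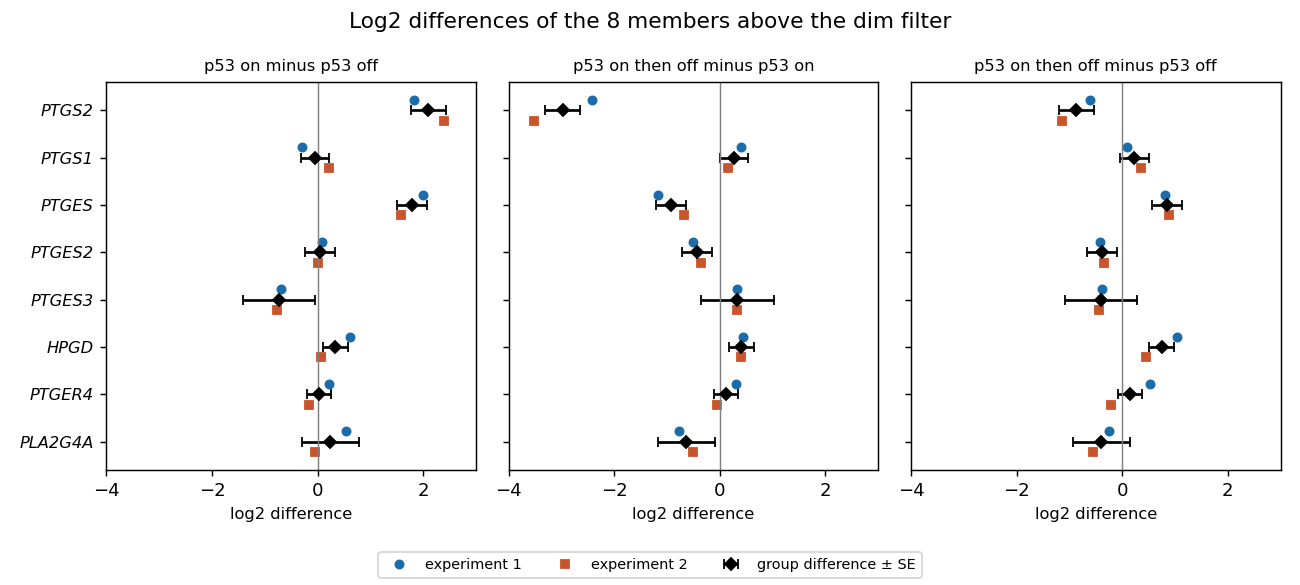
Log2 differences between groups for the 8 members above the dim filter; diamonds are group differences with limma's standard error (n = 2 arrays per group, all 6 arrays in the fit) and coloured points are the differences within each experiment. PTGS2 and PTGES lie to the right of 0 in p53 on, and they lie on opposite sides of 0 in recovery against control (-0.87 and 0.85). PTGES3 has wide errors although its experiments coincide.

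PLA2G4A, the cytosolic phospholipase A2 that supplies arachidonic acid, stood at 6.77 and 6.00 in p53 off, 7.30 and 5.95 in p53 on, then 6.52 and 5.45 after recovery. Experiment 2 was lower in every group, by 0.77 to 1.35. Recovery gave the lowest array of each experiment, 0.78 and 0.50 below p53 on. The difference of -0.64 ± 0.54 was not called (limma, adjusted p = 0.749, or 0.0874 with the block). With 1 array dropped it ran from -1.32 (p53 on array of experiment 2) to 0.04 (that of experiment 1). Of its 19 probe sets, 15 were lower after recovery than in p53 on in both experiments and 1 was higher. In p53 on it differed from control by 0.53 and -0.05 (0.24 ± 0.54, adjusted p = 0.899).

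HPGD, which inactivates prostaglandin E2, stood at 7.75 and 7.91 in p53 off, 8.36 and 7.98 in p53 on, then 8.79 and 8.37 after recovery. The recovery arrays were above every other array, but the lower of them, at 8.37, was close to p53 on in experiment 1, at 8.36. Within each experiment the order was p53 off, p53 on, recovery. Against control the recovery difference was 1.04 and 0.46, or 0.75 ± 0.24, and all 8 probe sets were higher in both experiments. This was not called (limma, adjusted p = 0.876, or 0.162 with the block). Nor was its step in p53 on of 0.34 ± 0.24 (adjusted p = 0.592) or in recovery against p53 on of 0.41 ± 0.24 (adjusted p = 0.582).

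The receptor genes had low gene values. PTGER4, the EP4 receptor, stood between 3.64 and 4.16 on all 6 arrays. It moved in opposite directions in the experiments in all 3 comparisons, by at most 0.52, and none was called (limma, adjusted p between 0.925 and 0.999). Its 9 probe sets had mean control signals from 2.35 to 8.48, and in p53 on 1 was higher and 4 were lower in both experiments, with differences from -1.30 to 0.66. PTGER2, the EP2 receptor, lay between 3.36 and 3.59 on 5 arrays and at 1.75 on p53 on array 1. It was under the dim filter and was not tested. Of its 5 probe sets, 1 was lower and 1 was higher in p53 on in both experiments.

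Against p53 on, none of the 7 tested members other than PTGS2 was called in recovery without the block (limma, 1 under an unadjusted p of 0.05), where 0.428% of all genes were, and 1, PTGES, was with it, where 7.24% were. Against control, none was called in either fit (2 under an unadjusted p of 0.05 without the block and 3 with it), where 0.0285% of all genes were called without the block and 0.599% with it. The 3 comparisons share arrays, so they are not independent of each other. The median difference over all genes tested was 0.02, 0.02 and 0.03 in the 3 comparisons.

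Beside the members, 8 lists covered the rest of the pathway and the known inputs and outputs of PTGS2, with 120 genes above the dim filter. Without the block 1 rose in p53 on, ALOX5, and none was called in recovery against p53 on (limma, 18 under an unadjusted p of 0.05) or against control (6 under it, and none called with the block, where 19 were under it). With the block 9 rose and 6 fell in p53 on, and 6 rose and 5 fell in recovery against p53 on, 12.5% and 9.17% of the 120 beside 11.5% and 7.24% of all genes. The medians of the 120 were -0.01, -0.01 and 0.01.

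**Figure D4:**
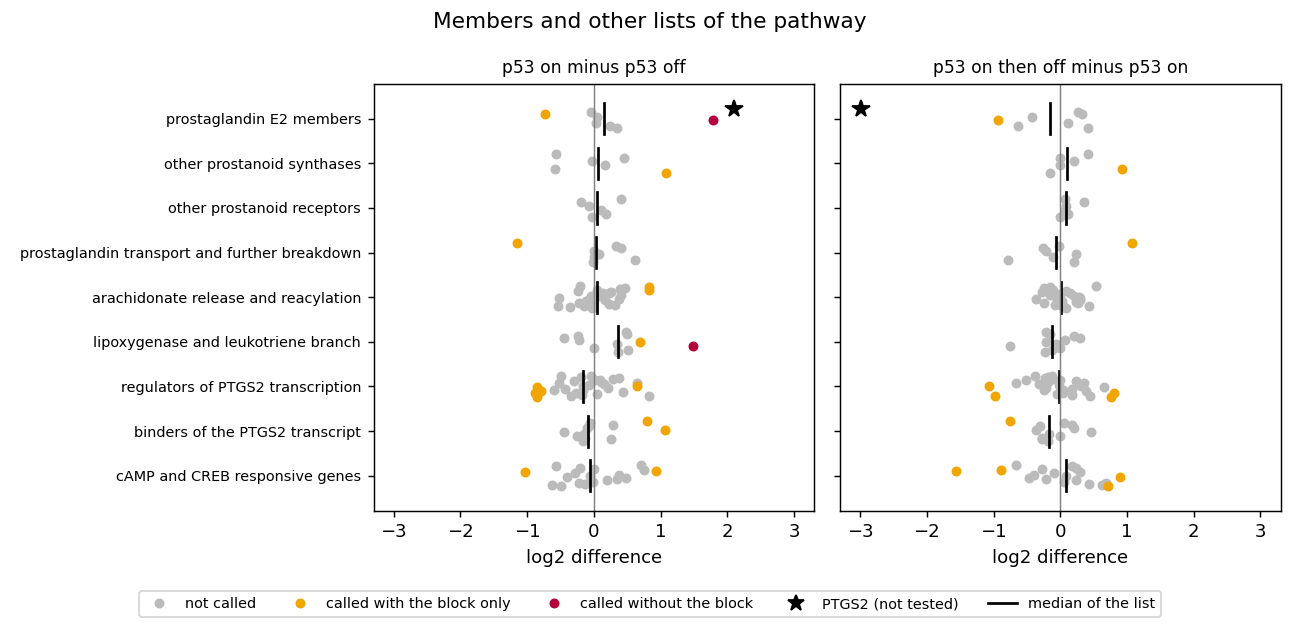
Log2 differences of the members and of 8 other lists above the dim filter, 1 point per gene, for p53 on against p53 off and for recovery against p53 on; colour gives the call by limma (adjusted p under 0.05) and the bar the list's median. List medians lie between -0.18 and 0.36, and among the tested genes drawn other than PTGS2 (a star, with no test given), PTGES and ALOX5 are the calls without the block.

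Of 6 tested genes for other enzymes that turn prostaglandin H2 or its products into further prostanoids, none was called without the block (limma, 1 under an unadjusted p of 0.05 in p53 on and 1 in recovery against p53 on). AKR1C3, an aldo-keto reductase that makes prostaglandin F, was 1.27 and 0.89 above control in p53 on (1.08 ± 0.48, adjusted p = 0.347, called with the block at 0.00754) and 1.01 and 0.85 above it after recovery. CBR1, a carbonyl reductase that acts on prostaglandin E2, was 0.55 and 1.32 higher after recovery than in p53 on (0.93 ± 0.36, adjusted p = 0.357, called with the block at 0.0351). A further list of 6 tested genes held other prostanoid receptors and PTGFRN, a regulator of the prostaglandin F receptor. None of the 6 was called in either fit (limma, 0 under an unadjusted p of 0.05). The thromboxane receptor gene TBXA2R had the widest difference, 0.47 ± 0.26 between recovery and control (adjusted p = 0.987).

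In transport and further breakdown, 8 genes were tested and none was called without the block (limma, 1 under an unadjusted p of 0.05 in p53 on and 1 in recovery against p53 on). SLCO4A1, an organic anion transporter of the family that carries prostaglandins, stood at 8.81 and 8.51 in p53 off, 7.63 and 7.37 in p53 on, then 8.78 and 8.39 after recovery. The p53 on arrays were below all others. The dip was -1.16 ± 0.24 (limma, adjusted p = 0.0769, called with the block at 0.00467) and the return 1.08 ± 0.24 (adjusted p = 0.129, called with the block at 0.00945).

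Around the release and reacylation of arachidonate 29 genes were tested, a list that also held ANXA1 and the desaturase genes FADS1 and FADS2. None was called without the block (limma, 3 under an unadjusted p of 0.05 in p53 on). In p53 on the phospholipase genes PLA2G6 (0.83 ± 0.28) and PLA2G4E (0.82 ± 0.22) were called higher with the block (adjusted p = 0.0285 and 0.0177, or 0.215 and 0.138 without). Both control arrays of PLA2G4E and 1 of PLA2G6 were under the value of the dim filter.

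The lipoxygenase branch, which competes for the same arachidonic acid, held the other call. ALOX5, which starts leukotriene synthesis, stood at 5.75 and 6.13 in p53 off, 7.55 and 7.32 in p53 on, then 6.78 and 6.57 after recovery. The 3 groups did not overlap, with recovery in between, as for PTGES. How many of all genes do the same was not counted. ALOX5 rose by 1.49 ± 0.23 (limma, adjusted p = 0.0395), and the call was lost when any single array was left out (adjusted p between 0.0841, without either recovery array, and 0.242, without p53 off array 1), with no dim filter (0.0501) and when these groups were fitted alone (0.0841). The step down in recovery was -0.76 ± 0.23 (adjusted p = 0.229, or 0.0606 with the block), and the level against control was 0.73 ± 0.23 (adjusted p = 0.870, or 0.185 with the block). DPEP1, a dipeptidase that processes leukotriene D4, was called higher in p53 on with the block (0.69 ± 0.23, adjusted p = 0.0373, or 0.215 without) and with the mean of the probe sets (0.0492). Of the 11 tested genes of this branch, 1 was called in p53 on without the block and 2 with it, all of them higher. These calls are 9.09% and 18.2%, beside 1.48% and 11.5% of all genes called in either direction.

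Of 29 tested transcription factors and signalling genes known to act on PTGS2, none was called without the block (limma, 8 under an unadjusted p of 0.05 in p53 on and 7 in recovery against p53 on). With it 1 rose and 4 fell in p53 on, 17.2% beside 11.5% of all genes, and 2 rose and 2 fell in recovery against p53 on, 13.8% beside 7.24%. CREB1, which binds cyclic AMP response elements, stood at 7.20 and 7.44 in p53 off, 6.42 and 6.45 in p53 on, then 7.23 and 7.26 after recovery, low where PTGS2 was high (-0.88 ± 0.20, adjusted p = 0.0930, called with the block at 0.0148). Its return was 0.81 ± 0.20 (adjusted p = 0.158, called with the block at 0.0286). JUN, an AP-1 subunit, was also lower in p53 on (-0.86 ± 0.21, adjusted p = 0.120, called with the block at 0.0211). So was ATF2 (-0.86 ± 0.22, adjusted p = 0.128, called with the block at 0.0221). Like CREB1, ATF2 returned in recovery (0.76 ± 0.22, adjusted p = 0.217, called with the block at 0.0447). JUND, another AP-1 subunit, and ATF3, a stress-induced factor, were lower after recovery than in p53 on, by 1.19 and 0.95 for JUND (-1.07 ± 0.21, adjusted p = 0.104, called with the block at 0.0104) and by 0.86 and 1.09 for ATF3 (-0.98 ± 0.27, adjusted p = 0.196, called with the block at 0.0451). JUND was also higher in p53 on than in control with the block (0.64 ± 0.21, adjusted p = 0.0463, or 0.215 without).

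Of 12 tested genes for proteins that bind the PTGS2 transcript or others with AU-rich elements, none was called without the block (limma, 2 under an unadjusted p of 0.05 in p53 on and 1 in recovery against p53 on). With it RBM3, a cold-inducible RNA-binding protein, was called higher in p53 on (1.06 ± 0.42, adjusted p = 0.00694, or 0.299 without). ZFP36L2, of a family that promotes the decay of such transcripts, was 0.84 and 0.75 higher in p53 on and 0.90 and 0.61 lower again after recovery (called with the block, adjusted p = 0.0223 and 0.0361, or 0.239 and 0.325 without).

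Downstream of the receptors, 19 genes of cyclic AMP signalling were tested and none was called without the block (limma, 6 under an unadjusted p of 0.05 in p53 on and 7 in recovery against p53 on). With it 1 rose and 1 fell in p53 on, 10.5% beside 11.5% of all genes, and 2 rose and 2 fell in recovery against p53 on, 21.1% beside 7.24%. PDE4D, a phosphodiesterase that degrades cyclic AMP, stood at 4.57 and 5.16 in p53 off, 5.81 and 5.79 in p53 on, then 4.40 and 4.08 after recovery. Like PTGS2 it was highest in p53 on and lowest after recovery on these arrays, with a difference of 0.93 ± 0.26 in p53 on (limma, adjusted p = 0.147, called with the block at 0.0344) and a step down of -1.56 ± 0.26 (adjusted p = 0.0746, called with the block at 0.00772). The circadian gene PER1 also stepped down, by 0.51 and 1.27 (adjusted p = 0.184, called with the block at 0.0404). EREG, an EGF receptor ligand, was 0.93 and 0.85 higher after recovery than in p53 on (adjusted p = 0.190, called with the block at 0.0345). PDE10A, another phosphodiesterase, was 0.63 and 1.44 below control in p53 on (adjusted p = 0.186, called with the block at 0.0207).

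The 5 tested genes whose values were closest to PTGS2 over the 6 arrays, after the mean of each experiment was subtracted, were PHLDA3, an inhibitor of AKT signalling, POLH, a translesion DNA polymerase, BTG2, an antiproliferative gene, MARCH3, a ubiquitin ligase, and ABCA1, a cholesterol exporter. Their root mean square differences from PTGS2 were between 0.331 and 0.385 log2 units. PHLDA3, the closest, stood at 4.92 and 5.51 in p53 off, 6.79 and 6.98 in p53 on, then 4.40 and 4.49 after recovery. It too ended below its control in both experiments, which its choice by closeness to PTGS2 favours. ABCA1 was at 4.79 and 4.22 with p53 off, 6.28 and 6.42 with p53 on, then 4.20 and 4.08 after recovery. The closest genes depended on how a gene was summarised, as 1 of the 5 was again among the closest with the mean of the probe sets, while all 5 were with quantile normalization or centring.

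**Figure D5:**
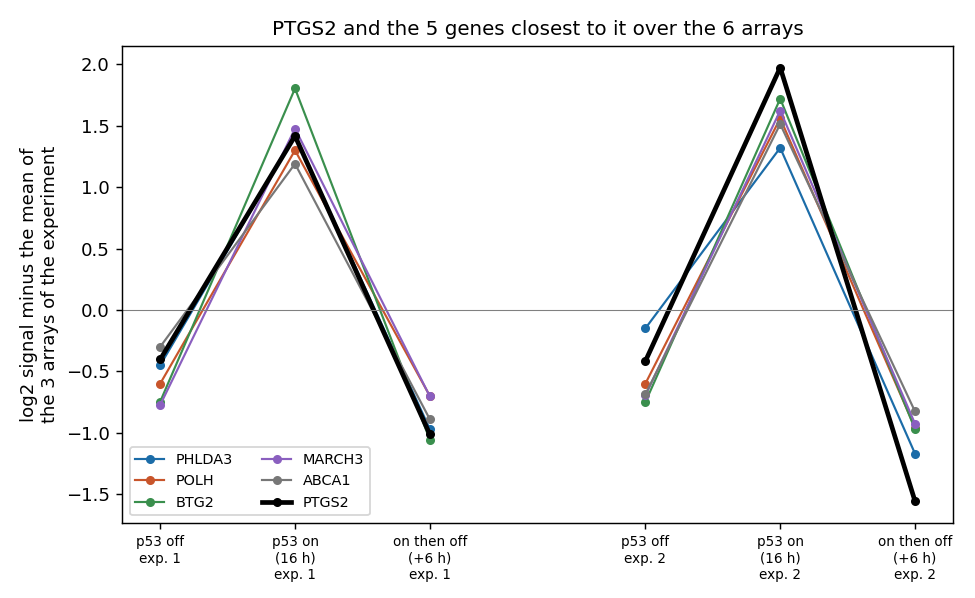
Log2 signal of PTGS2 (black) and of the 5 genes closest to it, each minus its mean over the 3 arrays of an experiment. All 6 peak in p53 on, and the recovery value of PTGS2 in experiment 2 is the lowest drawn.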

How the data were processed

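Total RNA (100 ng per sample) from 6 samples was labelled and hybridised to Affymetrix Human Gene 1.0 ST arrays, per the labels' protocols. The deposited values were taken as log2 signals per exon-level probe set from their range of -0.85 to 13.14. Which program made them, and with what background correction or normalization, is not stated by the labels or the table used. Array medians lay between 5.24 and 5.31, so no scaling was added. Arrays have no read depth, so the precision is limited by how many there were.

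The annotation gave a single gene symbol for 224320 of 257430 probe sets, which were used, several symbols for 10159 and none for 22951. The comparisons were fitted in limma 3.58.1 (R 4.3.3) over all 6 arrays, with Benjamini-Hochberg adjustment over the 14025 genes tested and a call at an adjusted p under 0.05. An exact permutation test of 2 arrays against 2 cannot give a p under 0.333. The labels' experiment number was taken to pair the arrays. Same-numbered arrays deviated together from their group means (correlations across genes of 0.496, 0.551 and 0.63), and values with this number as a replicate block are printed where they change a call. The fit was tested on simulated data with independent noise, larger rises than that of PTGES and no effect shared within an experiment. That test therefore does not show how far the calls here hold.

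The members and lists were chosen with earlier results of these data known. All members are named, and from each other list at most 4 genes called in either fit, by size of the difference, or the gene with the largest difference where none was called. ATF2, tied with JUN in rounded size, is named as well. The genes closest to PTGS2 leave out small RNAs, pseudogenes and uncharacterised loci. The alternatives were the replicate block, leaving out each array, the mean of the probe sets, quantile normalization, centring, 2 other filters on dim genes and fitting each pair of groups alone.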

Additional observations from a re-analysis of the deposited data

How the results depend on the processing

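The differences of PTGS2 kept their direction under all 13 alternatives in each comparison. All of these reuse the same arrays, and PTGS2 was chosen with its fall in recovery known. The kept direction is thus a description and no test of PTGS2, also for its level against control. Leaving out 1 array gave 1.64 to 2.57 for p53 on against p53 off, -3.44 to -2.51 for recovery against p53 on and -1.05 to -0.70 for recovery against p53 off. The mean of the probe sets gave 1.61 and -2.58 for the first 2 of these. The number of members other than PTGS2 called in p53 on was 1, and it was 2 with the replicate block, 0 without any 1 of the 6 arrays (from 0 to 0), 0 with no filter on dim genes and 0 when the 2 groups were fitted alone, which uses fewer arrays. In recovery against p53 on it was 0, and 1 with the replicate block. In recovery against p53 off it was 0 under each. PTGER4 fell under the stricter filter, which left out the lowest 50% of genes, and has no value there. Whether the closest genes to PTGS2 stay the same was tried after seeing the data. With 2 arrays per group, a difference that was not called is not shown to be absent.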
